A study of Arabidopsis thaliana with 3 samples.

Results

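In 1 of 3 pools of dissected Arabidopsis thaliana inflorescence tips, 61 nuclear genes were detected at a level at least 10-fold above that in both other pools. They were chosen by their measured counts. A nuclear locus entered if it had at least 100 raw counts in replicate 1 and if its CPM there (counts per 1000000 nuclear counts) was at least 10 times that in replicate 2 and in replicate 3. The 61 loci are 0.378% of the 16132 nuclear loci with at least 100 counts in replicate 1, and 32399 nuclear loci were counted in all. All 61 are protein-coding. Since replicate 1 chose them, their levels there and their folds over the other pools are given as a description, with no test.

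The tapetum is the innermost cell layer of the anther wall. It feeds the meiotic cells and microspores that it surrounds, secretes the enzyme that dissolves the callose wall of the tetrads, and makes and exports the lipid and phenolic precursors of sporopollenin, the polymer of the outer pollen wall (exine). In Arabidopsis its development runs through a series of transcription factors, with the bHLH protein DYT1 and the MYB protein TDF1 early, the bHLH protein AMS after them, and the MYB protein MYB80 and the PHD-finger protein MS1 later.

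All 3 libraries belong to 1 group, untreated wild-type plants of the accession Col-0, and the replicate numbers 1 to 3 are those in the sample titles. Plants had 4 weeks of short days (8 h of light) and 2 weeks of long days (16 h), and 10 inflorescences made up each pool. Buds were removed up to the stage the labels call P5, so a pool holds the meristem and the youngest flowers left on it. Whether plants of the pools were raised or dissected separately is not in the labels, and with 1 library against the others the spread between pools cannot be split into a biological and a technical part.

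Depth was alike in the 3 libraries, with 29078107, 28933042 and 27236559 nuclear counts in replicates 1, 2 and 3. Where a gene had 0 counts, its level could still be as high as 0.103, 0.104 or 0.110 CPM, the worth of 3 counts in replicates 1, 2 and 3. Intervals given with a ratio are exact 95% intervals for counting error only. Reads carried no molecular identifiers and may repeat a molecule, and such an interval says nothing of the spread between pools. In bulk tissue, fewer cells of a type and less RNA per cell cannot be told apart.

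The group of members with the most counts was that called small secreted proteins here, led by the lipid-transfer superfamily. Proteins of this superfamily are small, carry a signal peptide and hold a lipid in a cavity that is closed by 4 disulfide bonds between 8 cysteines, a number found in the gene models below. The coding sequences of the 3 members on the list of anther lipid-transfer genes are shown, and all 3 share this cysteine pattern. They were not picked by level alone. AT3G52130, of the same superfamily, had 2731 counts in replicate 1 against 851 for AT5G07230. Its model holds 3 cysteines, and it is not shown. The sequences shown are spliced from RefSeq models on the TAIR10.1 assembly and read 5′ to 3′ from start to stop codon. Each cysteine codon (TGT or TGC in frame) is in capitals. AT5G62080 spans chr5:24933798-24934400 on the minus strand, AT5G52160 chr5:21195140-21195430 on the plus strand and AT5G07230 chr5:2271013-2271408 on the plus strand.
AT5G62080: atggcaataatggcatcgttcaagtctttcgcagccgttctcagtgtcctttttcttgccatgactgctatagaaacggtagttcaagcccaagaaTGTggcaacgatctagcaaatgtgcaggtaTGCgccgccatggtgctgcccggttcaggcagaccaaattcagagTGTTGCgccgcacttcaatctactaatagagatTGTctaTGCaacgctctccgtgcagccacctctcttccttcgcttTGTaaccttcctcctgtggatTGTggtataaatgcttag
AT5G52160: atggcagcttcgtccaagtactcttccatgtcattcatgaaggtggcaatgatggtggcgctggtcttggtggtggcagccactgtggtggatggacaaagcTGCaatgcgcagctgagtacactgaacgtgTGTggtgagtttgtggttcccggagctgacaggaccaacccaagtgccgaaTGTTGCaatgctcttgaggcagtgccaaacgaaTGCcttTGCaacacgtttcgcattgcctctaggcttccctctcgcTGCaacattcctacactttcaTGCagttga
AT5G07230: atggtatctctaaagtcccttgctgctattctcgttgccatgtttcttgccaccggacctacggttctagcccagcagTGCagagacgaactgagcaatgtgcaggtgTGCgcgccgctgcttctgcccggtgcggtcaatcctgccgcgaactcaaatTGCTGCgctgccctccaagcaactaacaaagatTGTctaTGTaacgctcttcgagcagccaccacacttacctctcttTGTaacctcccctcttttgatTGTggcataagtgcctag

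The models encode 95, 96 and 91 residues, and each holds 8 cysteines. In each, 1 pair of cysteines is adjacent and 1 pair is separated by a single residue, as the capitals show. AT5G62080 and AT5G07230 were identical at 63.7% of aligned residues, relative to the shorter protein, whereas AT5G52160 shared 38.9% with the first and 40.7% with the second. AT5G62080 stood at 172 CPM in replicate 1, 1.69 in replicate 2 and 0.110 in replicate 3. AT5G52160 had a like profile at 165, 1.66 and 0.147 CPM. AT5G07230 was lower throughout, at 29.3, 0.242 and 0.110 CPM. Relative to the higher of the other pools, these were ratios of 101 (76.5 to 137), 99.4 (74.8 to 135) and 121 (58.5 to 302). Replicate 1 alone was high for all 3 genes, and replicate 3 was the lowest. For AT5G07230 the order of the low pools rests on 7 and 3 counts. The ratio of replicate 2 to replicate 3 was 2.20 (0.501 to 13.2), so that order is not settled for this gene.

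Over the whole set, 45044 counts fell on the members in replicate 1, 630 in replicate 2 and 288 in replicate 3. These are 0.155% (exact 95% interval 0.153 to 0.156), 0.00218% (0.00201 to 0.00235) and 0.00106% (0.000939 to 0.00119) of nuclear counts. The members therefore took a small share even of the library in which they were high. Their median level was 7.88 CPM in replicate 1, with a range of 3.47 to 231, against medians of 0.173 CPM in replicate 2 and 0.0734 CPM in replicate 3. In replicate 2 the highest level was 2.14 CPM and 3 members were at 0 counts, and in replicate 3 it was 1.54 CPM and 18 were at 0. No member was at 0 in both. The ratio of replicate 1 to the higher of the other pools had a median of 58.7 and ran from 10.6 to 402. It was at least 100 for 25 members and below 20 for 14.

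**Figure D1:**
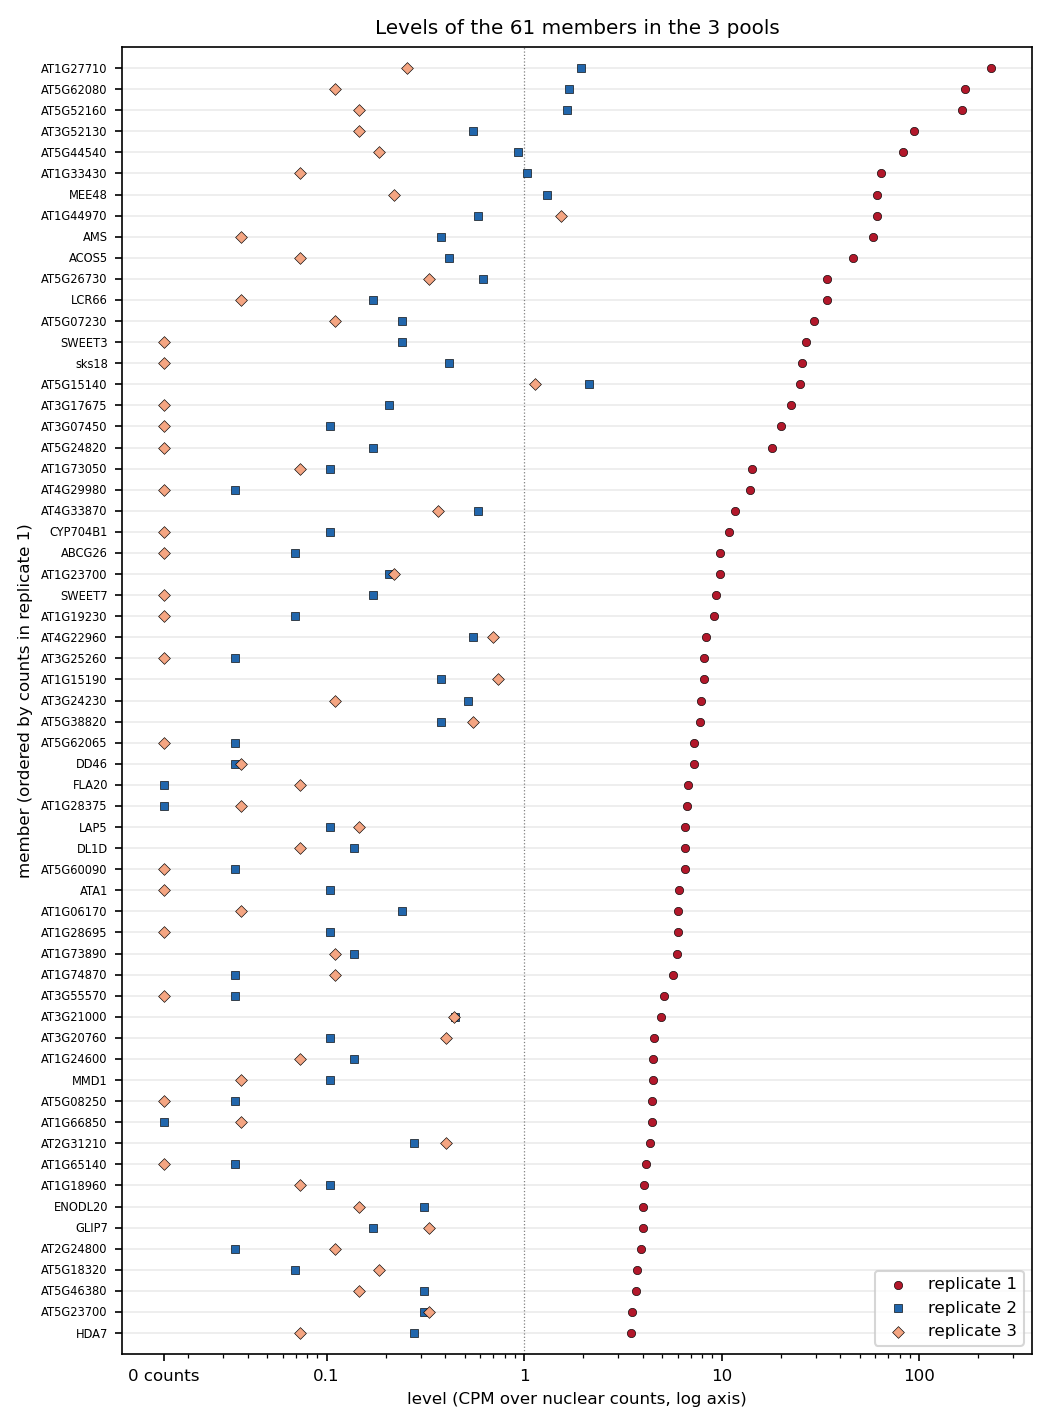
Level of each of the 61 members in the 3 libraries, in CPM over nuclear counts on a log axis, with members ordered by their counts in replicate 1 and 0 counts drawn at the left. Circles, squares and diamonds stand for replicates 1, 2 and 3, with no error bars as each point is 1 library. Replicate 1 runs from 3.47 to 231 CPM, and 54 members lie below 1 CPM (dotted line) in both other libraries.

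Counts were concentrated in a few members. The 5 with the most counts, AT1G27710, AT5G62080, AT5G52160, AT3G52130 and AT5G44540, took 21636 counts or 48.0% of the members' total in replicate 1. At least 1000 counts were found there for 11 members, while 27 had 200 or fewer. On a level per exon length (CPM divided by exon length and rescaled to an equal total), these same 5 were the top 5 members, at 430 for AT5G52160, 426 for AT1G27710, 400 for AT5G62080, 376 for AT5G44540 and 340 for AT3G52130. They were also the only members among the 1000 highest nuclear loci of replicate 1 on that scale, with the best rank at 323.

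Among regulators, AMS was the member with the highest level. AMS (AT2G16910, chr2:7331721-7334254), a bHLH factor required for tapetum development and pollen wall formation, stood at 58.3 CPM in replicate 1, 0.380 in replicate 2 and 0.0367 in replicate 3. The counts behind these levels were 1694, 11 and 1, a ratio of 153 (85.4 to 308) over replicate 2. A pair of other bHLH genes that act with DYT1 in the anther followed far below. AT1G06170 had 176, 7 and 1 counts (6.05, 0.242 and 0.0367 CPM), a ratio of 25.0 (11.9 to 63.1). AT2G31210 had 126, 8 and 11 counts (4.33, 0.277 and 0.404 CPM), a ratio of 10.7 (5.80 to 22.0) over replicate 3. It was thus among the members closest to the limit of the rule. Their relative AT2G31220 did not enter, at 22.7, 3.87 and 6.46 CPM, 3.51-fold (2.97 to 4.17) over replicate 3.

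The factors that stand before and after AMS in the known series were low or absent in all pools. DYT1 had 14 counts in replicate 1 and 0 in both others. With a count of 0 set to the floor of replicate 3 (3 counts) it was 4.37-fold higher, and the exact lower limit was 3.30. TDF1 had 64, 5 and 3 counts (2.20, 0.173 and 0.110 CPM), a ratio of 12.7 (5.18 to 40.6). MYB80 had 19, 1 and 0 counts, or 0.653, 0.0346 and 0 CPM. All 3 were below the 100 counts of the rule and were highest in replicate 1. MS1 and AT2G42940, an AT-hook protein gene known as TEK and needed for the inner exine layer, were listed at 0 in all 3 libraries. MYB99 had 2, 1 and 2 counts and NAC025 had 7, 4 and 2.

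The remaining regulators on the tapetum list had counts in all pools. Replicate 1 was the highest for SPL, the factor that starts sporogenous cell formation, at 6.77, 2.70 and 3.01 CPM (2.25-fold, 1.73 to 2.95, over replicate 3). EMS1, the receptor kinase that sets tapetum identity, stood at 63.0, 62.9 and 101 CPM, and its small secreted ligand TPD1 at 6.88, 5.70 and 6.24 CPM. The highest pool was thus not replicate 1 for the receptor. MYB33 (36.9, 37.1 and 36.3 CPM) and MYB65 (5.74, 5.18 and 5.29 CPM), which act redundantly in the tapetum, were nearly even across pools. The bZIP factor genes TGA9 (20.5, 12.4 and 25.8 CPM) and TGA10 (6.36, 3.32 and 10.8 CPM) were highest in replicate 3. So was the glutaredoxin gene ROXY2 (1.62, 0.588 and 3.56 CPM), while ROXY1, which acts with it in anther formation, had 24.6, 20.1 and 24.8 CPM. Of these 20 regulators, 3 were members, and 14 reached 1 CPM in replicate 1, 9 of them in all 3 pools. Members were 0.378% of all nuclear loci with at least 100 counts in replicate 1. Over all nuclear loci, 55.1% reached 1 CPM in replicate 1.

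MMD1, HDA7 and a myb-like gene were further regulators among the members. MMD1, a PHD-finger protein gene needed for male meiosis, had 131, 3 and 1 counts (4.51, 0.104 and 0.0367 CPM), a ratio of 43.4 (14.5 to 213) over replicate 2. HDA7, annotated as a histone deacetylase, had 101, 8 and 2 counts, the lowest count of any member in replicate 1. AT1G18960, annotated as a myb-like transcriptional regulator, had 118, 3 and 2.

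Genes for making and exporting sporopollenin precursors were found both inside and outside the set. ACOS5 (AT1G62940, chr1:23310532-23312795) encodes the fatty acyl-CoA synthetase that starts the polyketide branch, and stood at 46.2, 0.415 and 0.0734 CPM (1343, 12 and 2 counts). Its ratio over replicate 2 was 111 (63.5 to 216). CYP704B1, a hydroxylase of long-chain fatty acids, had 317, 3 and 0 counts, a ratio of 105 (35.7 to 513) over replicate 2. LAP5, a polyketide synthase that acts on the products of ACOS5, had 191, 3 and 4 counts, a ratio of 44.7 (17.2 to 166) over replicate 3. ABCG26, the transporter that exports wall precursors from the tapetum, had 286, 2 and 0 counts, a ratio of 142 (39.0 to 1181) over replicate 2. In each of these 4 genes replicate 1 was high and both other pools held at most 12 counts.

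Other enzymes of the same route behaved otherwise. LAP6, the second polyketide synthase of the route, was even at 24.3, 22.4 and 25.1 CPM (mean 23.9 ± 1.41, SD, n = 3). The tetraketide reductase gene DRL1 stood at 45.4, 16.2 and 11.8 CPM, 2.80-fold (2.52 to 3.12) higher in replicate 1 than in replicate 2. TKPR2, the other reductase, stood at 24.7, 10.7 and 11.1 CPM, 2.22-fold (1.94 to 2.54) over replicate 3. Both reductases were therefore highest in replicate 1 but kept more than 10 CPM in every pool. CYP703A2, a second fatty acid hydroxylase of exine formation, was listed at 0 in all 3 libraries, and MS2, a fatty acyl reductase, had 1 count in replicate 3 and none in the others.

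The other genes on the pollen wall list encode carriers, membrane proteins and wall-building proteins. AT1G33430, annotated as a galactosyltransferase family protein, was a member at 64.2, 1.04 and 0.0734 CPM, a ratio of 61.9 (43.2 to 92.0) over replicate 2. SWEET8, a sugar carrier needed for exine patterning, was not, at 2.24, 0.104 and 3.38 CPM: it was low in replicate 2 and highest in replicate 3. DEX1 (72.7 ± 4.32 CPM), NEF1 (81.3 ± 1.60), NPU (35.0 ± 1.07) and IRX9-L (52.9 ± 1.20, mean ± SD, n = 3) were even across pools. These 4 are needed for primexine or wall formation and are not tied to the tapetum alone. Of the 15 genes on this list, 5 were members, against 0.378% of all nuclear loci with at least 100 counts in replicate 1. The rule took these 5 on their ratio, so nothing is read from this count about the list.

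Genes of the tetrad wall were highest in replicate 1 where they had more than a few counts. MEE48 (AT4G14080), a glycosyl hydrolase of family 17 whose reference note names pollen exine formation, was a member at 61.4, 1.31 and 0.220 CPM, a ratio of 46.7 (33.9 to 66.2). CALS5, the callose synthase that lays down the wall around microspores, stood at 16.1, 3.18 and 3.34 CPM (4.82-fold, 3.84 to 6.10). AT1G68200, a zinc finger gene with the synonym CDM1 for its effect on callose in microspores, stood at 12.7, 0.864 and 1.32 CPM. At 9.60-fold (6.81 to 13.9) it was the locus closest below the limit of the rule. QRT1, which acts in the release of microspores from tetrads, had 16, 0 and 3 counts, while QRT2 had 2, 1 and 0 and QRT3 had 6, 8 and 6. Counts were thus higher in replicate 1 for 4 of the 6 genes by at least 2-fold, with QRT1 resting on 16 counts there.

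The annotation gives a note naming pollen exine formation to 9 protein-coding genes, and 3 of these were members (AT1G33430, MEE48 and LAP5). Among all nuclear loci with at least 100 counts in replicate 1, 0.378% were members. LAP6 is among the other 6 genes with this note. LAP3, annotated with the same note, stood at 23.1, 9.12 and 13.0 CPM. AT5G58100 was even at 80.7, 86.3 and 82.6 CPM. CYP703A2 was at 0, MS2 had 1 count in all, and AT3G28780 had 0, 5 and 1 counts.

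The group called small secreted proteins was the largest by counts. That name is a label, as no signal peptide was searched for. AT1G27710 and AT1G73890 in it have 212 and 193 residues. AT1G27710, a glycine-rich protein (chr1:9642472-9643352), had the highest CPM of all members at 231, 1.94 and 0.257 CPM, a ratio of 119 (91.6 to 158) over replicate 2. AT3G52130, of the lipid-transfer superfamily, followed the pair AT5G62080 and AT5G52160 at 93.9, 0.553 and 0.147 CPM, a ratio of 170 (104 to 298). AT5G44540, annotated as a tapetum-specific protein of the TAP35/TAP44 kind, stood at 83.1, 0.933 and 0.184 CPM, a ratio of 89.0 (61.0 to 135). These 3 genes, like the pair, were lowest in replicate 3. LCR66, a cysteine-rich peptide gene, had 999, 5 and 1 counts (34.4, 0.173 and 0.0367 CPM), a ratio of 199 (84.9 to 614).

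The lipid-transfer superfamily gave 8 of the 61 members (13.1%), against 0.457% of all protein-coding loci. Of its 122 loci, 30 had at least 100 counts in replicate 1, so 26.7% of those that could enter did so. The 8 summed to 497, 4.42 and 0.661 CPM. AT3G07450 had 583, 3 and 0 counts, a ratio of 193 (65.8 to 940) over replicate 2. AT5G62065 had 212, 1 and 0 counts, AT1G73890 had 173, 4 and 3, and AT1G66850 had 129, 0 and 1. None of these 4 held more than 4 counts in another pool. A further gene of the superfamily, AT4G14805, fell just outside, with 96, 2 and 1 counts. Of the 8 models, 6 hold 8 cysteines and AT5G62065 holds 9. The RefSeq model of AT3G52130 holds 3.

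Other anther genes of the superfamily were hardly counted. A7 had 2, 0 and 0 counts and LTP12 was at 0 in all 3 libraries.

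Wall polysaccharide and arabinogalactan genes were the next group. Fasciclin-like arabinogalactan proteins are secreted glycoproteins of the cell surface, and 4 of their 28 loci (16 with at least 100 counts in replicate 1) were members. This family was 6.56% of the members, against 0.105% of all protein-coding loci. AT5G26730 stood at 34.4, 0.622 and 0.330 CPM, a ratio of 55.3 (34.8 to 93.7). AT4G29980 had 404, 1 and 0 counts, a ratio of 402 (71.7 to 15916) over replicate 2 that rests on 1 count there. FLA20 had 196, 0 and 2 counts and AT1G15190 had 236, 11 and 20. AT5G15140, annotated as galactose mutarotase-like, had the highest CPM of the group in both other pools, at 24.9, 2.14 and 1.14 CPM, a ratio of 11.6 (8.97 to 15.3). By ratio, AT1G15190 was lower still at 11.1, so the ratio was far from even within the group. DD46, a second galactosyltransferase family member, had 210, 1 and 1 counts, and the pectate lyase family gene AT3G24230 had 229, 15 and 3.

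Redox enzymes and copper proteins formed a group of 9. AT1G44970, of the peroxidase superfamily, stood at 61.2, 0.588 and 1.54 CPM, a ratio of 39.7 (29.2 to 55.3) over replicate 3. It was the exception among the members with many counts, since replicate 3 exceeded replicate 2. The peroxidase genes AT4G33870 (341, 17 and 10 counts) and AT2G24800 (114, 1 and 3) were also members. With AT1G44970, 3 of the 11 peroxidase loci with at least 100 counts in replicate 1 were members. The superfamily was 4.92% of the members, against 0.251% of all protein-coding loci. sks18, a multicopper oxidase-like gene of the SKU5 family, stood at 25.7, 0.415 and 0 CPM, a ratio of 61.9 (35.2 to 120) over replicate 2. The cupredoxin gene AT3G17675 stood at 22.4, 0.207 and 0 CPM, and AT1G73050, of the glucose-methanol-choline oxidoreductase family, at 14.3, 0.104 and 0.0734 CPM. ATA1, a dehydrogenase gene first named for its tapetum expression, had 177, 3 and 0 counts (6.09, 0.104 and 0 CPM), a ratio of 58.7 (19.8 to 287).

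Transporters were 5 of the members. SWEET3, of the SWEET family of sugar carriers, had 779, 7 and 0 counts (26.8, 0.242 and 0 CPM), a ratio of 111 (53.5 to 276) over replicate 2. Over replicate 3 it was 243-fold with the count of 0 set to 3 counts, and the exact lower limit was 197. SWEET7 had 273, 5 and 0 counts. AT3G25260, of the major facilitator superfamily, had 237, 1 and 0, and the amino acid transporter family gene AT5G38820 had 225, 11 and 15. Both SWEET genes were thus at 0 in replicate 3, unlike SWEET8, which was highest there. Of the hydrolases outside the wall groups, the aspartyl protease family gene AT5G24820 had 522, 5 and 0 counts (18.0, 0.173 and 0 CPM), a ratio of 104 (44.2 to 321).

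Other members fell in none of these groups, a grouping made after the members were seen. The 14 without a role, among them protein kinase, dynamin-like, DNA repair and uncharacterised genes, lay between 3.51 and 9.80 CPM in replicate 1. DL1D, the dynamin-like gene, had 190, 4 and 2 counts, and AT3G20760, annotated as a subunit of the Smc5/6 DNA repair complex, had 133, 3 and 11.

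**Figure D2:**
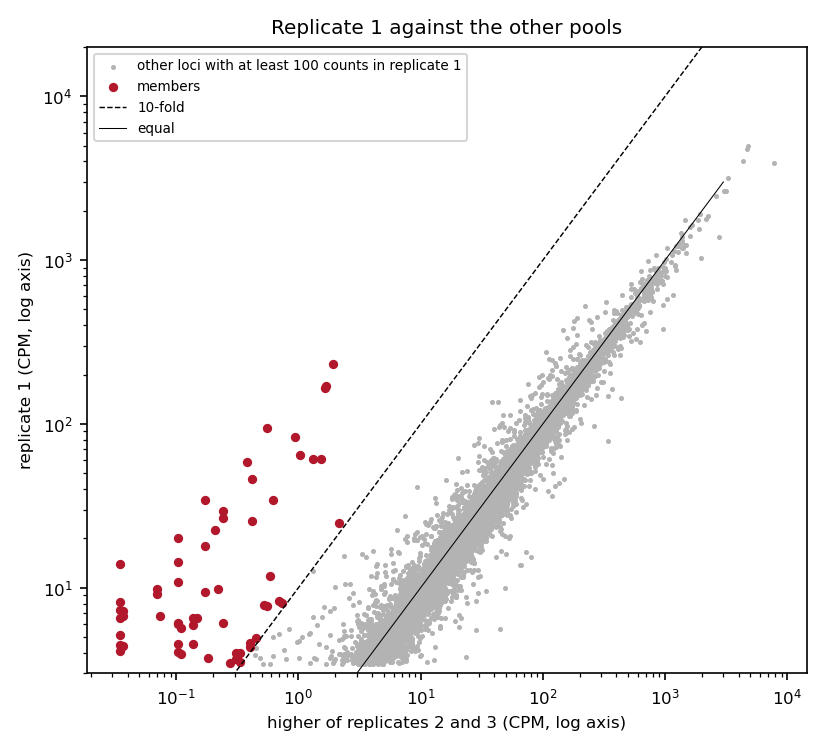
Level of every nuclear locus with at least 100 counts in replicate 1, in CPM on log axes, replicate 1 on the y axis and the higher of replicates 2 and 3 on the x axis. Red points are the 61 members, grey points the other loci, the dashed line marks a 10-fold ratio and the solid line equal levels. The members run from the dashed line to replicate 1 levels of 231 CPM, and none passes 2.14 CPM in another library.

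The label of a tapetum set was checked against 18 marker genes of the tapetum. Of these, 7 were members (AMS, ACOS5, CYP704B1, LAP5, ABCG26, MEE48 and AT5G07230), and TDF1 and MYB80 had ratios above 10 at fewer than 100 counts. DRL1 and TKPR2 lay between 2-fold and 10-fold, and LAP6 was even. DYT1, with 14, 0 and 0 counts, was 4.37-fold higher with counts of 0 set to the floor. Its ratio has no upper limit. The other 5, MS1, CYP703A2, MS2, A7 and QRT3, had fewer than 10 counts in replicate 1, and MS1 and CYP703A2 were at 0 in all pools. Summed over the 18, the level was 320, 52.4 and 49.1 CPM. That sum includes the 7 members, which the rule took for being high in replicate 1, so it is no check of the label. The label thus covers part of the tapetum markers, and 47 of the 61 members are on no list of anther or flower genes used here. These lists were drawn up with earlier results of these libraries known, so their overlap with the members is no independent evidence.

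Over all 12 lists of floral genes, those of the tapetum and the pollen wall included, 14 of 119 genes were members and 80 reached 1 CPM in replicate 1. Members were 0.378% of all nuclear loci with at least 100 counts there, and 55.1% of all nuclear loci reached 1 CPM there. Over all loci with at least 10 counts in replicate 1, 0.729% were at least 10-fold and 2.59% at least 2-fold over both other pools, and with at least 100 counts the share at 2-fold was 1.22%. Among tapetum regulators with at least 10 counts, 5 of 16 were at least 10-fold and 8 at least 2-fold. For pollen wall synthesis the numbers were 5 and 7 of 13, for the tetrad wall 1 and 4 of 4, and for anther lipid-transfer genes 3 and 3 of 3. These counts include the members, which the rule took on the same ratio, so nothing is read from them about the lists. Without the members, the tapetum regulators summed to 199, 154 and 224 CPM, the pollen wall genes to 333, 292 and 297 CPM and the tetrad wall genes to 29.6, 4.35 and 4.99 CPM. In the sum of the regulators that were no members, replicate 1 was thus not the highest pool. That sum leans on EMS1, at 63.0, 62.9 and 101 CPM. Gene by gene the order differed. SPL, AT2G31220, TDF1 and MYB80, among others, were highest in replicate 1, and EMS1, TGA9, TGA10 and ROXY2, among others, in replicate 3.

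Genes of later stages were mostly no members. Of 15 genes of the late tapetum and the pollen coat, ATA1 was the only member. Over all loci with at least 100 counts in replicate 1 the share was 0.378%, so this is no lack of members. Among the 8 genes of this list with at least 10 counts in replicate 1, 2 were at least 2-fold higher there. They were ATA1 and the lipase gene AT1G75920, which had 14, 2 and 0 counts, a ratio of 6.97 (1.60 to 63.1). The list summed to 42.8, 42.0 and 30.4 CPM. Much of that sum came from another lipase gene, AT1G75900, at 18.8, 29.0 and 15.5 CPM, and from the vacuolar protease gene BETA-VPE, at 7.91, 6.57 and 6.57 CPM. ATA20, a late tapetum gene, was even at 4.40, 4.08 and 4.11 CPM, and CEP1, a protease gene of tapetum breakdown, was at 0 in all. The 5 phenylpropanoid genes of the tapetum, whose products coat the pollen grain, held at most 6 counts each. Their sums were 0.344, 0.104 and 0.110 CPM. These phenylpropanoid genes were thus at or near the floor in all 3 pools.

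Most meiotic genes were less than 2-fold higher in replicate 1. Of 21, 20 had at least 10 counts in replicate 1. Of these, 3 were at least 2-fold higher there, and 2 at least 10-fold, MMD1 and MS5. Over all loci with at least 10 counts there, 2.59% were at least 2-fold and 0.729% at least 10-fold higher. The rule took MMD1 on this ratio, so nothing is read from these counts about the list. In the 20 genes the median log2 ratio of replicate 1 to the higher other pool was 0.255. MS5, which acts at the exit from male meiosis, had 58, 3 and 0 counts, a ratio of 19.2 (6.26 to 96.0). The axis protein gene ASY1 was 3.75-fold (2.17 to 6.82) higher, at 2.20, 0.588 and 0.514 CPM. DMC1, the meiotic recombinase, stood at 14.3, 14.6 and 15.0 CPM and the cyclin gene SDS at 7.43, 8.36 and 7.97. The list summed to 168, 146 and 137 CPM.

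Lists of other floral tissues had summed levels in replicate 1 that lay below or between those of the other pools. The 10 genes of early anther specification summed to 1609, 1821 and 1850 CPM, with none at 2-fold. The 6 stamen and petal identity genes summed to 534, 469 and 569 CPM, among them AP3 at 102, 101 and 113 CPM and PI at 124, 98.1 and 124. These MADS-box factors act from the first petal and stamen primordia on, and every pool held their transcripts. The 7 carpel and ovule genes summed to 96.1, 98.4 and 113 CPM. Among them CRC stood at 40.1, 43.8 and 51.3 CPM, and STK, an ovule identity gene, at 11, 0 and 0 counts. STK was the only one of these 7 at 2-fold or more, 3.43-fold with counts of 0 set to the floor and an exact lower limit of 2.50.

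Summed over their list, pollen genes were highest in replicate 2. VGD1, a pectin methylesterase gene of pollen, had 75, 353 and 9 counts (2.58, 12.2 and 0.330 CPM) and PPME1, another of that family, 4, 16 and 1. Both were highest in replicate 2, a pool in which the members were low, as they were in replicate 3. The list of 6 pollen genes summed to 2.79, 12.9 and 0.404 CPM, with DUO1 at 0 in all. Of 3 endothecium genes, MYB26 had 26, 11 and 17 counts, NST1 had 9, 38 and 9, and NAC066 had 1, 0 and 0, so these did not share 1 order of the pools. The part of these differences between pools in the members' levels was not tested.

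**Figure D3:**
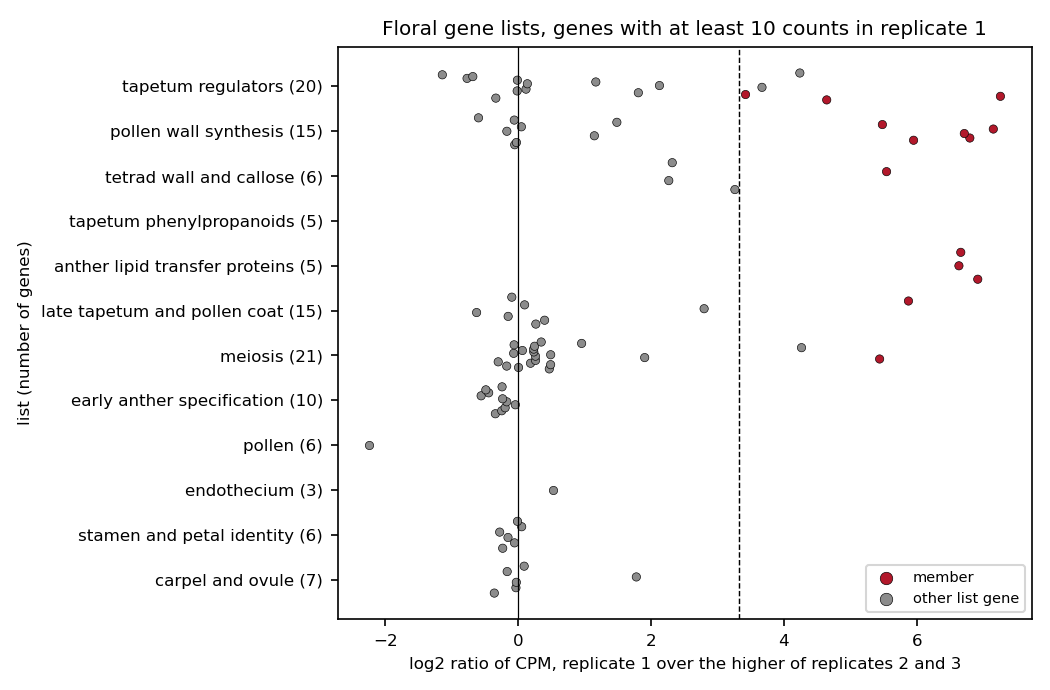
Log2 ratio of CPM in replicate 1 over the higher of replicates 2 and 3 for each gene with at least 10 counts in replicate 1, by list, with the number of genes in the list in brackets. Each point is 1 gene, red for members, the solid line marks equal levels and the dashed line a 10-fold ratio, and a count of 0 in both other pools is set to 3 counts of replicate 3. The red points lie beyond the dashed line by the rule, and the stamen and petal identity genes lie between -0.28 and 0.05.

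Replicates 2 and 3 could be compared with each other, a ratio that the rule did not use, although it holds both to at most 10% of replicate 1. Of the 61 members, 44 (72.1%) were higher in replicate 2 and 17 in replicate 3. Over all loci with a count in either, 61.4% were higher in replicate 2. With at least 10 counts over both pools, 19 of 28 members (67.9%) were higher in replicate 2, against 62.1% of all such loci and 63.5% of those with 10 to 93 counts, the range of the members. The direction alone was thus close to the background.

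The size of the difference was larger. Of these 28 members, 15 (53.6%) were at least 2-fold higher in replicate 2, against 27.7% of loci in the same range of counts and 5.74% of all. In the opposite direction it was 2 of 28, against 10.2% of loci in that range and 2.1% of all. The median log2 ratio of replicate 2 to replicate 3 was 1.08 in these 28 members and 0.07 over all 19708 loci with at least 10 counts. Loci with a count of 0 in either pool were left out of the medians. The 19708 loci are not limited to the members' range of counts, so these medians are not matched. With 1 library against 1, no test is possible.

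The difference was most visible in the members with many counts. Of the 11 with at least 1000 counts in replicate 1, 10 were higher in replicate 2. In replicate 2 they kept a median of 0.987% of their replicate 1 level, with a narrow range of 0.589% to 2.14%. In replicate 3 the median was 0.156% and the range 0.0630% to 2.52%. AT5G62080 had 49 counts in replicate 2 and 3 in replicate 3, a ratio of 15.4 (4.96 to 77.1). AT1G33430 had 30 and 2, AMS 11 and 1, and MEE48 38 and 6 (5.96, 2.50 to 17.3). AT1G44970 was the exception with 17 and 42 counts, a ratio of 0.381 (0.203 to 0.684). Summed over all 61, replicate 2 held 1.41% and replicate 3 held 0.683% of the replicate 1 level.

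In replicate 2 or 3, 7 members kept at least 1 CPM. They are AT1G27710, AT5G62080, AT5G52160, AT1G33430 and MEE48 in replicate 2, AT1G44970 in replicate 3 and AT5G15140 in both. The same rule turned round gave almost nothing. With replicate 2 in the role of replicate 1, 0 of 16098 loci with at least 100 counts met it (0% of them), and with replicate 3 it was 1 of 15694 (0.00637%).

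**Figure D4:**
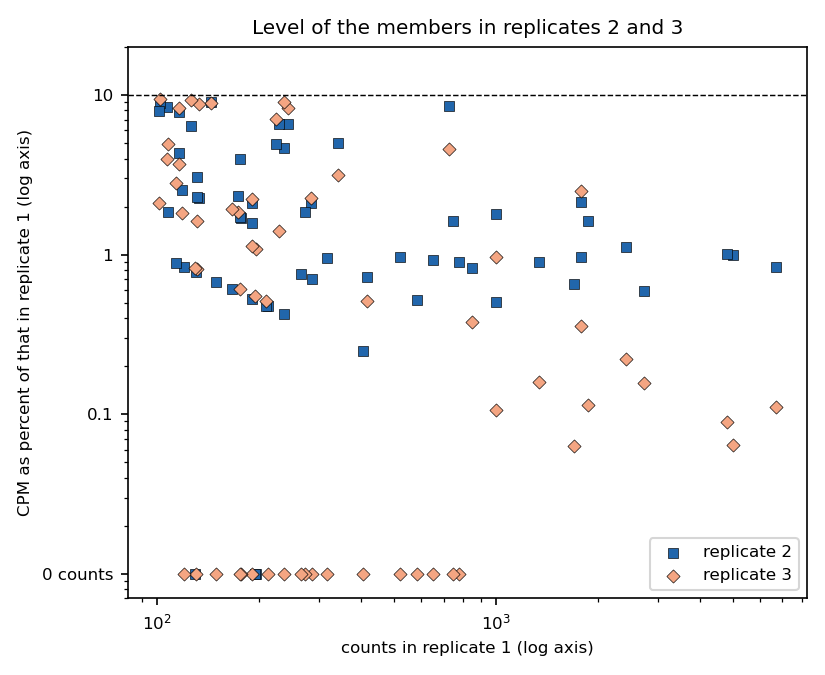
CPM of each member in replicate 2 (squares) and replicate 3 (diamonds) as a percentage of its CPM in replicate 1, on a log axis with 0 counts at the bottom, against its counts in replicate 1 on a log axis. The dashed line is the 10% limit of the rule, and each point is 1 member in 1 library, with no error bars. For the 11 members with at least 1000 counts, replicate 2 lies between 0.589% and 2.14%, and replicate 3 reaches down to 0.0630%.

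The reference annotation carries notes on where a product is found and when its gene is expressed, which the rule did not use. A note was present for 57 of the 61 members and for 23983 protein-coding genes. The endomembrane system was named for 28 members (49.1%) and for 14.2% of all. Flower as the place of expression was named for 21 (36.8%) and for 2.39%, and the petal differentiation and expansion stage for 32 (56.1%) and 5.47%. Many notes give only a number of structures or stages, so these counts are of notes that spell the term out.

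Members were not short proteins as a rule. The median length was 392 residues against 348 over 27444 protein-coding genes, and 13 members (21.3%) had 130 residues or fewer, against 12.9% of all. The median share of cysteine was 1.79% against 1.68%, and the median number of coding exons 3 against 4.

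The 300 bases around each gene start (250 before and 50 after) were searched for 5 motifs on both strands. CANNTG, the letters of the E-box that bHLH proteins bind, was in 36 of 61 member windows (59.0%) and in 61.7% of 27443 windows. CACGTG, 1 form of it, was in 1 member window (1.64%, AT1G65140) against 7.68%. CATGTG, another form, was in 12 (19.7%) against 12.9%. CCAACC, the letters of a MYB element, was in 8 (13.1%) against 7.74%, and TGACG, the core of sites for TGA factors, in 18 (29.5%) against 23.1%. CACGTG and CATGTG are contained in CANNTG. A match is a description of letters, not a binding site, and for 11 members, AMS among them, the annotated gene begins at the start codon, so that the window is not drawn from a transcript start.

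The 250 bases before the start of 3 members, ACOS5, AT5G62080 and AT5G52160, are shown as examples. Their ratios were 111, 101 and 99.4, but other members had ratios as near to 100. In the longer windows searched above, AT5G24820 (ratio 104) and CYP704B1 (105) had 0 CANNTG matches. AT3G17675 (108) had 2 and SWEET3 (111) had 3. The 3 examples therefore do not stand for the members as a set. Their sequences are read from TAIR10.1 in the direction of the gene, with CANNTG matches in capitals. The windows are chr1:23310282-23310531 on the plus strand for ACOS5, chr5:24934485-24934734 on the minus strand for AT5G62080 and chr5:21194794-21195043 on the plus strand for AT5G52160.
ACOS5: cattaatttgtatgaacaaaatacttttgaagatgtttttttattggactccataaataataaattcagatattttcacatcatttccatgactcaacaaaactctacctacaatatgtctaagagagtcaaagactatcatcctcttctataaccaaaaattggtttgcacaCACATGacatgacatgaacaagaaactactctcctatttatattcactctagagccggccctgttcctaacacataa
AT5G62080: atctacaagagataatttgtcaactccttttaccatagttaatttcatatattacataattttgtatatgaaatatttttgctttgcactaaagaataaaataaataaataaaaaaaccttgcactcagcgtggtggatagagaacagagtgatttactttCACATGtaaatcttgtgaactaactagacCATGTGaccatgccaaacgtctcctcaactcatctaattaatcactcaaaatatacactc
AT5G52160: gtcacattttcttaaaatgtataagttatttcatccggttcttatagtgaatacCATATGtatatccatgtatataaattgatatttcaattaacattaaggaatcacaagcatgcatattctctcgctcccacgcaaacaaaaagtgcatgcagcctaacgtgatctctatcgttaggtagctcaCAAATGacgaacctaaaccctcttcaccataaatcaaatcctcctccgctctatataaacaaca
ACOS5 has 1 match (CACATG, which is CATGTG on the other strand), AT5G62080 has 2 (CACATG and CATGTG) and AT5G52160 has 2 (CATATG and CAAATG).

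Members lay on every chromosome, with 22, 5, 10, 6 and 18 on chromosomes 1 to 5. These are 30427671, 19698289, 23459830, 18585056 and 26975502 bases long. The share of all loci on each chromosome was not computed. Only 1 pair lay within 50 kb, AT5G62065 and AT5G62080, both of the lipid-transfer superfamily, with 3692 bp and 1 protein-coding gene between them. No member had a near-identical copy (at least 90% identity over at least 80% of its coding sequence), the best match being 86.2% identical.

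A gene on the opposite strand overlaps 13 members, and LAP5 overlaps another on its own strand as well. The libraries were strand-specific per the labels, but the strand setting of the counting is not given in the sources used here, so the counts of these 13 could hold reads of their partners. For AMS the partner AT2G16920 had 929, 1007 and 939 counts. The partner of AT1G27710, AT1G27720, had 187, 102 and 106 counts, against 6706, 56 and 7 for the member. For LAP5 the opposite partner AT4G34860 had 1898, 1714 and 1661 counts. The levels of these 3 partners differed far less between pools than those of the members.

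At the limits of the rule the values run on without a break. Just inside by ratio were AT5G23700 at 10.6, AT2G31210 at 10.7 and AT3G21000 at 11.0, and just outside AT1G68200 at 9.60, AT1G76250 at 9.57 and PUM12 at 8.82. By count, HDA7 (101), AT5G23700 (102) and AT5G46380 (107) were the lowest inside. Just outside were AT1G54240 with 97, 1 and 1 counts, AT3G57370 and AT4G14805 with 96, 2 and 1 each, and AT5G60080 with 96, 0 and 0.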

How the data were processed

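Counts per gene were deposited by the authors as whole numbers, not normalised, for 32678 loci in each of 3 libraries. The submitters' processing notes name HTSeq 0.6.1, TopHat2 2.1.0, Bowtie2 2.2.5, FastQC and the build TAIR10. The role of each, the annotation release and whether counting used strand is not given in the sources used here. Total counts were 29094404, 28948463 and 27254114. Organelle loci (279) were not used, and no row lacked a gene name (0). CPM was computed on nuclear counts. Of 32399 nuclear loci, 31912 matched RefSeq TAIR10.1, the source of names, notes, coordinates and sequences, since the counts carry no coordinates.

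Members and lists were chosen with earlier results of these data known, and the grouping by role was made after the members were seen. Genes named are those on lists among the members, all genes of the tapetum regulator and pollen wall lists, the 20 members with the highest CPM, the 5 with the highest level per exon length, those nearest the limits and those at 1 CPM or more in replicates 2 or 3. Others were chosen after their values were seen. For 14 of the 119 list genes the reference does not hold the listed name, and the locus identifier or the reference's own symbol is used.

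No test was made, as all libraries form 1 group. Intervals are exact (Clopper-Pearson, 95%). Software was Python 3.11.15, pandas 2.3.3, numpy 2.4.6, scipy 1.17.1, Biopython 1.88, blastn 2.17.0, matplotlib 3.10.9, and for scaling alternatives R 4.3.3 with edgeR 4.0.16 and DESeq2 1.42.0. The rule was tested on simulated counts. Alternatives were other library sizes, count minimums, folds, an added 0.1 CPM, each other library left out, protein-coding loci alone, other levels for presence, and a shorter promoter window.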

Additional observations from a re-analysis of the deposited data

How the results depend on the processing

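The number of members moved with the count minimum, to 92 loci at 50 counts, 34 at 200 and 745 with no minimum, and was 61 in the main setting. Leaving out replicate 2 or replicate 3 gave 65 to 95 loci, the higher number without replicate 2. Without replicate 1 the rule cannot be applied. Library sizes from all counts, TMM factors and DESeq2 size factors each gave 61. A fold of 5 gave 75, a fold of 20 gave 47 and an added 0.1 CPM gave 52. Members higher in replicate 2 than in replicate 3 were 44 in the main setting, 43 under both other scalings and 19 of 28 with at least 10 counts. Library-wide shares, counts of list genes and motif shares moved by less than 1.5 times. Counts limit the members most in replicates 2 and 3, where 42 and 52 of them had fewer than 10. No paired analysis was possible because all libraries belong to 1 group.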
